A study of Mus with 8 samples.

Results

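The guanylate-binding proteins (GBPs) and the immunity-related GTPases (IRGs) are families of GTP-hydrolysing proteins that mouse cells make in response to interferons. Their expression was followed here through 10 genes: 6 Gbp genes (Gbp2, Gbp3, Gbp5, Gbp6, Gbp7 and Gbp9) and 4 Irg genes (Irgm1, Irgm2, Igtp, which is also called Irgm3, and Iigp1, which is also called Irga6). They were chosen by name from the 2 families with their values in all 4 conditions known. The levels and ratios of these 10 genes are therefore a description. The calls, intervals and counts given for them come from the fit over all genes, are no independent test of these genes, and carry no printed p-value. They are 10 of the 24013 genes counted, and all 10 passed the filter on low counts, as did 13339 genes in all. The choice covers part of the families: a list of 16 other Gbp and Irg genes is described further below, and Ifi47, which encodes the IRG Irgd, was placed on the list of other interferon-stimulated genes.

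The RNA came from 3T3-L1, a preadipocyte line of the mouse that turns into fat cells when given inducing hormones. All cells carried a short hairpin RNA (shRNA) delivered by a pLKO.1 lentivirus and had been selected in puromycin. Control cells (C) carried a scrambled shRNA, and P cells an shRNA against Prep1, a homeodomain transcription factor encoded by Pknox1. Each was sampled at day −2, in growth medium before induction, and at day 1, a day after the change to a medium with insulin (1 µg/ml), dexamethasone (1 µM), the phosphodiesterase inhibitor IBMX (0.5 mM) and 10% FBS. This gave 4 conditions with 2 biological replicas each. The cells were selected pools, and the sources used here do not say whether the replicas came from separate infections. Growth medium held calf serum, so hormones, serum and time changed together between day −2 and day 1 and cannot be told apart.

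In infected mouse cells, GBPs gather on bacteria and on the vacuoles of parasites, help to break them open, and feed their products to the inflammasome. The IRGs fall into effectors, such as Iigp1, which coat and rupture such vacuoles, and regulators, the 3 Irgm proteins, which sit on the cell's own membranes and keep the effectors off them. Interferon gamma turns these genes on through gamma-activated sites in their promoters, and type I interferon through interferon-stimulated response elements. In cells that no interferon has reached the genes are expressed at low levels.

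The libraries held between 20428816 and 27614353 counts. Values are given as CPM, counts per 1000000 counts of a library whose size was scaled by the trimmed mean of M-values (TMM), a scale on which 3 counts were worth 0.107 to 0.160 CPM. Pknox1, the targeted gene, had means of 27.3 CPM in C cells against 17.8 CPM in P cells before induction, and of 37.3 and 23.7 CPM at day 1. Replica 1 of P cells at day −2 stood apart from the other libraries. The log2 difference between its genes and those of replica 2 had an SD of 0.795 over 5600 well expressed genes, against 0.121 to 0.261 in the other conditions, and 3 collagen genes (Col1a1, Col1a2 and Col3a1) took 5.68% of its counts against 1.16% to 1.81% elsewhere. Among the 10 GTPase genes, 2 were higher in this replica than in replica 2, and the median log2 difference between them was −0.45. Some counts of calls and some ratios that rest on it are therefore given with and without it. Means of P cells at day −2, and shares taken from them, use both replicas.

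Summed over the 10 genes, expression was low in C cells before induction, at 25.6 and 26.1 CPM in the 2 replicas, and reached 161 and 156 CPM at day 1. P cells at day −2 lay between these, at 67.5 and 98.3 CPM, and P cells at day 1 reached 134 and 131 CPM. Irgm1 weighed most in these sums. At day −2 it held 14.7 and 15.6 CPM in C cells and 15.1 and 35.3 CPM in P cells. In RNA from a whole culture, more cells that express a gene and more RNA per cell cannot be told apart. The order of the condition means was the same for every gene at its lower end. C cells at day −2 had the lowest mean for 10 of 10 genes and P cells at day −2 the next for 10 of 10, while C cells at day 1 had the highest for 9 and P cells at day 1 for 1 (Gbp7). Neighbours in this order did not always separate: the replicas of the lowest and the next condition overlapped for 1 gene (Irgm1), those of the middle pair for 2 (Gbp2 and Irgm1), and those of the 2 day 1 conditions for 5 (Gbp2, Gbp5, Gbp6, Gbp7 and Iigp1).

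**Figure D1:**
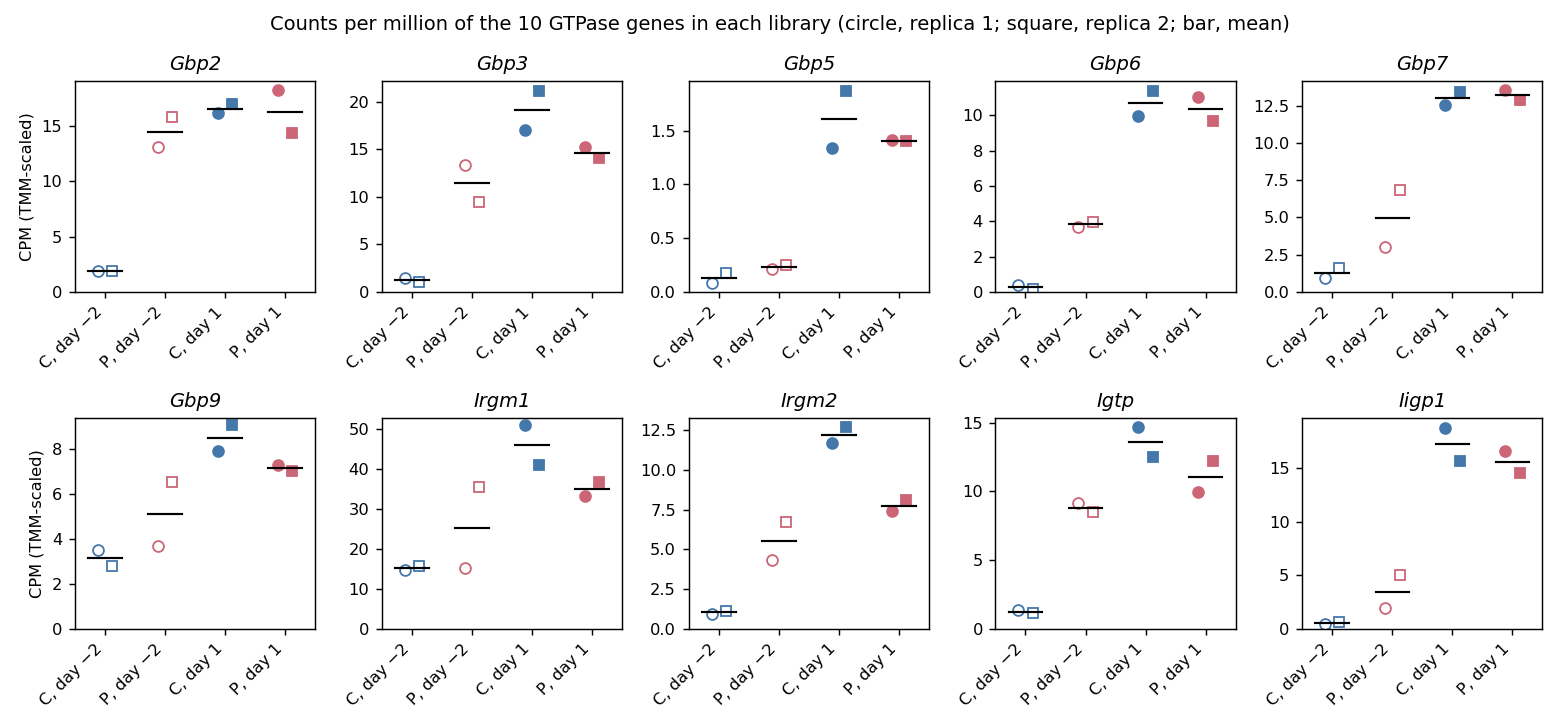
TMM-scaled CPM (linear axis starting at 0, a scale of its own for each gene) of the 10 GTPase genes in the 8 libraries, as circles for replica 1 and squares for replica 2, open at day −2 and filled at day 1, blue for C cells and red for P cells. Bars are the means of 2 replicas. C cells at day −2 have the lowest mean of each gene, P cells at day −2 the next, and the replicas of P cells at day −2 lie far apart for Irgm1 (15.1 and 35.3 CPM), Iigp1 (1.92 and 4.99 CPM) and Gbp7 (3.04 and 6.85 CPM).

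Gbp2 is a prenylated GBP that coats parasite vacuoles and bacteria. It measured 1.91 and 1.91 CPM in C cells and 13.1 and 15.8 CPM in P cells at day −2. At day 1 the levels were 16.1 and 17.0 CPM in C cells and 18.2 and 14.3 CPM in P cells. Both C libraries at day −2 stood far below all the others, and the P cells had a day −2 mean that was 87.2% of that of C cells at day 1. Gbp3 measured 1.43 and 1.02 CPM in C cells and 13.4 and 9.49 CPM in P cells at day −2. The levels at day 1 were 17.1 and 21.2 CPM in C cells and 15.2 and 14.1 CPM in P cells. Its replicas overlapped between no 2 conditions, and the day −2 mean of P cells was 59.7% of that of C cells at day 1.

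Gbp6 was close to the detection floor in C cells before induction, with 9 and 4 counts, or 0.359 and 0.177 CPM. It measured 3.67 and 3.96 CPM in P cells at day −2, 9.98 and 11.4 CPM in C cells at day 1, and 11.1 and 9.66 CPM in P cells at day 1. The P cells at day −2 thus sat apart from both other levels, at 35.7% of the mean of C cells at day 1. Gbp7, which takes part in oxidative killing of bacteria in macrophages, measured 0.956 and 1.59 CPM in C cells and 3.04 and 6.85 CPM in P cells at day −2. At day 1 it measured 12.6 and 13.5 CPM in C cells and 13.5 and 12.9 CPM in P cells, which overlapped.

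Gbp5, a prenylated GBP known for promoting NLRP3 inflammasome assembly, was the lowest of the 10 in counts. It had 2 and 4 counts in C cells and 4 and 7 counts in P cells at day −2. The day 1 libraries held 34 and 47 counts in C cells and 33 and 30 counts in P cells. In CPM these were 0.0797 and 0.177, 0.213 and 0.250, 1.34 and 1.87, and 1.41 and 1.40. The day −2 libraries of both lines were thus at or near the floor, and P cells at day −2 held 14.4% of the mean of C cells at day 1, the smallest share among the 10 genes. Gbp9 differed least between the conditions, from 3.51 and 2.79 CPM in C cells and 3.67 and 6.53 CPM in P cells at day −2 to 7.89 and 9.08 CPM in C cells and 7.31 and 7.0 CPM in P cells at day 1.

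Among the regulators, Irgm1, which is also tied to autophagy and to the survival of blood stem cells, had the most counts of the 10 genes. It measured 14.7 and 15.6 CPM in C cells at day −2 and 50.9 and 40.9 CPM at day 1, and 33.2 and 36.6 CPM in P cells at day 1. In P cells at day −2, replica 1 (15.1 CPM) lay among the C libraries and replica 2 (35.3 CPM) among the day 1 libraries of P cells. Irgm2 measured 0.917 and 1.11 CPM in C cells and 4.31 and 6.71 CPM in P cells at day −2. At day 1 it reached 11.7 and 12.7 CPM in C cells and 7.39 and 8.08 CPM in P cells. Its conditions followed each other without overlap, and at day 1 the P libraries were at 63.4% of the mean of the C libraries, the lowest such share of the 10 genes. Igtp measured 1.32 and 1.11 CPM in C cells and 9.16 and 8.45 CPM in P cells at day −2. At day 1 the levels were 14.7 and 12.5 CPM in C cells and 9.96 and 12.2 CPM in P cells.

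The effector Iigp1 differed more between the C libraries of day −2 and day 1 than all but Gbp6 of the 10 genes. It measured 0.398 and 0.620 CPM in C cells and 1.92 and 4.99 CPM in P cells at day −2. The levels at day 1 were 18.8 and 15.6 CPM in C cells and 16.6 and 14.5 CPM in P cells. P cells before induction were at 20.1% of the mean of C cells at day 1, and for the regulators Irgm1, Irgm2 and Igtp at 54.9%, 45.2% and 64.8%. Part of such a share can be the level before induction: Irgm1 had means of 15.15 CPM in C cells at day −2 and 45.9 CPM at day 1. Among the other Irg genes tested, described below, the shares ran from 9.76% (F830016B08Rik) to 219% (9930111J21Rik1), with 83.9% for Gm12250. No difference between effectors and regulators is therefore read from these shares. These shares compare conditions within a gene, and levels are not compared between genes, since counts also depend on transcript length.

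The next comparisons ask how induction changed these genes in each line, and how P cells differed from C cells on each day. A gene was called when edgeR's quasi-likelihood test, fitted over all genes and libraries, gave a Benjamini-Hochberg adjusted p under 0.1 together with a ratio over 2 or under 0.5. In C cells, 10 of the 10 genes were called higher at day 1 than at day −2, where 10.7% of all genes tested were called higher. Their log2 ratios ran from 1.43 for Gbp9 to 5.27 for Gbp6, with a median of 3.53 beside −0.01 over all genes, and medians of 3.48 for the Gbp genes and 3.53 for the Irg genes. Gbp6 rose 38.7-fold (log2 ratio 5.27 ± 0.33 SE), Iigp1 33.7-fold (5.07 ± 0.52) and Gbp3 15.5-fold (3.95 ± 0.29).

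At the lower end of the C cell induction were Irgm1, which rose 3.03-fold (1.60 ± 0.37), and Gbp9, 2.69-fold (1.43 ± 0.31). For Gbp5 the 81 counts at day 1 against 6 at day −2 gave a ratio of 12.8 with an exact 95% interval of 5.61 to 35.8, which covers counting error only. In 10 of the 10 genes the replicas of day 1 and day −2 did not overlap, as in 38.2% of all genes, and leaving out single libraries kept between 8 and 10 genes called. Irgm1 lost its call without replica 1 of C cells on either day (1.56 and 1.46) and without replica 2 at day −2 (1.65), and Gbp9 without replica 2 of C cells on either day (1.28 and 1.34).

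In P cells 4 of the 10 genes were called higher at day 1 than at day −2, where 7.65% of all genes were. These were Gbp5, with a log2 ratio of 2.56 ± 0.49, Iigp1, with 2.15 ± 0.42, Gbp6, with 1.44 ± 0.25, and Gbp7, with 1.41 ± 0.39. The other 6 had log2 ratios from 0.17 ± 0.20 for Gbp2 to 0.48 for Gbp9 and Irgm2, and were not called. The median over the 10 genes was 0.48, beside 0.02 over all genes, and 8 of the 10 had replicas without overlap, all higher at day 1, as 31.6% of all genes had. The 4 genes called were those with the smallest shares of the day 1 level of C cells in P cells before induction, a value that uses the same P libraries. Gbp7 lost its call without replica 1 of P cells at day −2 (0.94) and without either P library at day 1, and Irgm1 gained one without replica 2 of P cells at day −2 (1.22). Fitted on the P libraries alone, 2 of the 10 genes were called.

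Before induction, 7 of the 10 genes were called higher in P than in C cells, where 4.83% of all genes tested were called higher. Gbp6 was 13.8-fold higher (log2 ratio 3.79 ± 0.33), Gbp3 9.23-fold (3.21 ± 0.29) and Gbp2 7.56-fold (2.92 ± 0.22). Igtp was 7.23-fold higher (2.85 ± 0.23), Iigp1 6.87-fold (2.78 ± 0.51), Irgm2 5.46-fold (2.45 ± 0.29) and Gbp7 3.92-fold (1.97 ± 0.43). The genes not called were Gbp5 (0.85 ± 0.60), Irgm1 (0.74 ± 0.37) and Gbp9 (0.70 ± 0.31), and the median of the 10 was 2.61 beside 0.01 over all genes. The replicas did not overlap for 9 of the 10, all higher in P cells, as for 26.5% of all genes.

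The day −2 values rest in part on the replica of P cells that stood apart. Without it, 9 of the 10 genes were called, among them Irgm1 at a log2 ratio of 1.23 and Gbp9 at 1.06. With it and without replica 2, the ratio of Irgm1 was −0.01 and that of Gbp9 0.21. As log2 ratios to the mean of C cells at day −2, the median over the 10 genes was 1.89 in replica 1 and 2.68 in replica 2 of the uninduced P cells, against 3.35 and 3.32 in the C libraries of day 1 and 3.08 and 3.07 in the P libraries of day 1. Gbp2, Gbp3, Gbp6 and Igtp, whose replicas in P cells at day −2 differed by a factor between 0.710 and 1.21, were high in both, while Iigp1, Irgm1 and Gbp7 were 2.60, 2.34 and 2.26 times higher in replica 2. Without replica 1 of C cells at day −2, 4 genes were called, with Gbp7, Irgm2 and Iigp1 lost, and in a fit of the 4 day −2 libraries alone 3 of 9 tested. Iigp1 also lost its call without replica 2 of C cells at day −2, and Gbp7 without that library and without any of the 4 day 1 libraries.

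**Figure D2:**
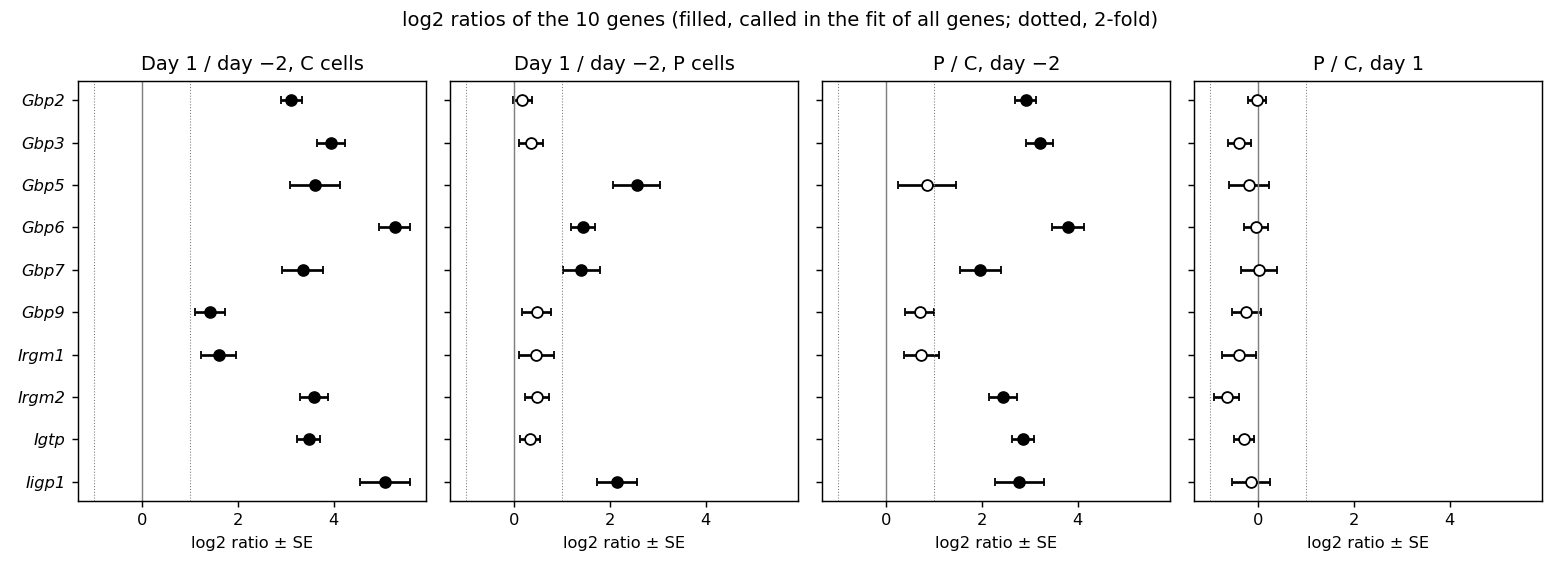
Log2 ratios of the 10 GTPase genes in the 4 comparisons, with bars of ± 1 SE from the edgeR quasi-likelihood fit of all genes; filled points were called, dotted lines mark ratios of 2 and 0.5. In the C cell induction 10 of 10 points are filled, in the P cell induction 4, between the lines at day −2 7, and between the lines at day 1 0, where the points lie between −0.66 and 0.02.

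At day 1, 0 of the 10 genes were called between P and C cells in either direction by edgeR or by DESeq2, where 1.83% of all genes were called higher in P cells and 2.23% lower. At an unadjusted p under 0.05 there was 1 gene with each tool, which in edgeR was Irgm2 (log2 ratio −0.66, 95% interval −1.26 to −0.06). For the other 9 genes the intervals included 0. In 6 of them, such as Gbp2 (−0.49 to 0.44), Gbp6 (−0.62 to 0.54) and Igtp (−0.78 to 0.18), the interval left out a 2-fold difference either way. For Gbp5 (−1.19 to 0.80), Irgm1 (−1.26 to 0.46) and Iigp1 (−1.09 to 0.80) a level 2-fold lower in P cells lay within the interval. In 5 of the 10 genes (Gbp3, Gbp9, Irgm1, Irgm2 and Igtp) both P libraries were below both C libraries, as in 29.9% of all genes.

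The difference between the responses of the 2 lines to induction, taken as an interaction in the same fit and called at an adjusted p under 0.1 without a threshold on its size, was negative for 10 of the 10 genes. It was called for 5, where 1.93% of all genes were called lower: Gbp6 (−3.83 ± 0.41 on the log2 scale), Gbp3 (−3.59 ± 0.38), Igtp (−3.15 ± 0.31), Irgm2 (−3.10 ± 0.38) and Gbp2 (−2.94 ± 0.29). Iigp1 (−2.93 ± 0.65), Gbp7 (−1.95 ± 0.57), Irgm1 (−1.13 ± 0.52), Gbp5 (−1.05 ± 0.73) and Gbp9 (−0.95 ± 0.43) were not called. The count moved with the library left out, from 1 without replica 1 of P cells at day 1, 2 without replica 2 of the same condition and 3 without replica 1 of C cells at day −2 to 9 without replica 1 of P cells at day −2. Since this difference is the day 1 ratio of P to C cells less the day −2 ratio, it repeats the values above and adds no measurement to them.

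**Figure D3:**
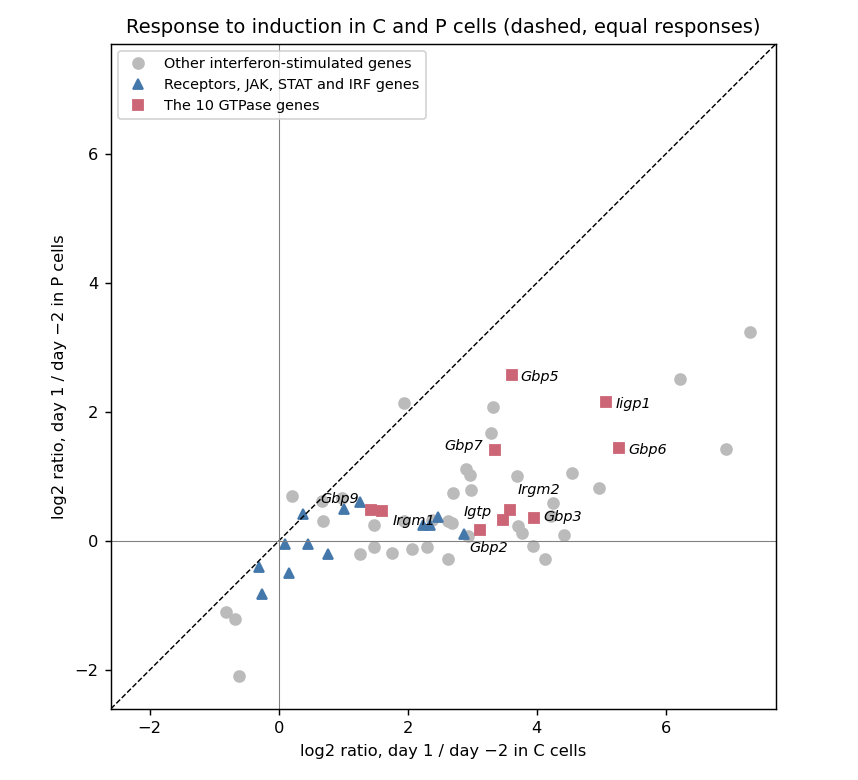
Log2 ratio of day 1 to day −2 in C cells (horizontal axis) and in P cells (vertical axis) for the 10 GTPase genes (red squares, named), 13 genes of receptors, JAK, STAT and IRF proteins (blue triangles) and 39 other interferon-stimulated genes (grey circles); each point is 1 gene. The 10 GTPase genes lie below the dashed line of equal responses, at 1.43 to 5.27 in C cells and 0.17 to 2.56 in P cells.

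The other members of the 2 families did not all move in the same way. Of the 16 other Gbp and Irg genes on the list, 10 passed the filter, and the 6 that did not (Gbp2b, Gbp10, Gbp11, 9930111J21Rik2, Gm5431 and Irgc1) had at most 22 counts in a library. In the induction of C cells 6 of the 10 were called higher. These were Gm4951, an Iigp1-like gene (log2 ratio 5.72 ± 0.55), and Tgtp1 (3.24 ± 0.87) and Tgtp2 (3.05 ± 0.56), which encode the effector Irgb6. The others were the very large GTPase gene Gvin1 (2.88 ± 0.95), F830016B08Rik (2.68 ± 0.81) and Gbp8 (2.06 ± 0.71). Gbp4 (1.39 ± 0.57), Gm4841 (2.12 ± 0.84), Gm12250, which encodes Irgb10 (1.14 ± 0.45), and 9930111J21Rik1 (−0.23 ± 0.51) were not called. These genes had low counts, and the 6 called became 2 without replica 2 of C cells at day −2 and 9 without replica 1 of P cells at day −2.

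In P cells, Gbp8, F830016B08Rik and Gm4951 were called higher at day 1 than at day −2 (2.57, 3.57 and 2.79) and 9930111J21Rik1 was called lower (−1.70), where 10.4% of all genes were called lower. DESeq2 did not call the latter lower, and edgeR's call was lost when any of 7 libraries was left out, while those of Gbp8 and F830016B08Rik were lost without either P library of day 1. Before induction Gm4951 was called higher in P than in C cells (3.19 ± 0.58), unless either C library of that day was left out. It measured 0.0797 and 0.177 CPM in C cells and 0.692 and 1.64 CPM in P cells at day −2. At day 1 it reached 7.10 and 6.73 CPM in C cells and 9.10 and 7.52 CPM in P cells. Tgtp1 (1.61 ± 0.90), Tgtp2 (1.53 ± 0.57), Gvin1 (2.82 ± 0.96) and Gm4841 (1.73 ± 0.86) were not called, and Gbp4 was at 0.04 ± 0.59 and Gbp8 at 0.32 ± 0.79. At day 1, 0 of the 10 were called between the lines by edgeR, with 0 at an unadjusted p under 0.05 and 0 by DESeq2. For the difference of the responses edgeR called 0, with 4 lower at an unadjusted p under 0.05, and DESeq2 called 1 lower.

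Some of these genes share sequence, and the sources used here do not state how reads that map to more than 1 gene were counted. Gbp6 and Gbp10 are close paralogues, as are Tgtp1 and Tgtp2, and Gvin1 and Gm4070 had identical counts in 8 of 8 libraries, so how their counts divide is uncertain.

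In the order of protein-coding genes of the RefSeq list for GRCm38.p6, the 10 genes fall into 5 clusters with other family members. Gbp5, Gbp7, Gbp3, Gbp2b and Gbp2 lie side by side, as do Gbp8, Gbp9, Gbp4, Gbp10 and Gbp6. Igtp and Irgm2 follow Gm12250, Iigp1 lies with Gm4951, Gm4841 and F830016B08Rik, and Irgm1 lies with Tgtp1, Tgtp2 and 4 other family genes. Within a cluster the values differed: before induction Gbp5 was at a log2 ratio of 0.85 beside 1.97 for Gbp7 and 3.21 for Gbp3, and Gbp4 at 0.04 beside 3.79 for Gbp6 in the same cluster.

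Genes that flank these clusters were looked at for comparison. Of 6 that were tested and are on no list here (Trim7, Mrpl22, Smim3, Pdlim5, Kyat3 and Lrrc8b), 0 were called higher and 2 lower in the induction of C cells by edgeR, where 9.68% of all genes were called lower, with 0 higher also at an unadjusted p under 0.05 and by DESeq2. Before induction 1 of the 6, Trim7 beside Irgm1, was called higher in P than in C cells (1.78), and the others lay between −0.88 and 0.88. Ifi47, the IRG at the other end of the Irgm1 cluster, was called higher in C cells on induction (2.69 ± 0.28, adjusted p = 0.00102) and in P cells before it (1.74 ± 0.28, adjusted p = 0.0186, lost without either C library at day −2), with both p-values from edgeR's quasi-likelihood test.

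The genes that carry the interferon signal were taken next, from a list of 16 genes for receptors, kinases and transcription factors, of which 13 were tested. In C cells 6 of the 13 were called higher on induction, while 0 were lower by edgeR, at an unadjusted p under 0.05 or by DESeq2. In P cells edgeR called 0 in either direction, as did DESeq2, with 3 higher and 3 lower at an unadjusted p under 0.05.

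Stat2 measured 14.6 and 16.4 CPM in C cells and 57.2 and 42.6 CPM in P cells at day −2. The levels at day 1 were 105 and 123 CPM in C cells and 51.5 and 55.7 CPM in P cells. Unlike the 10 GTPase genes it was called lower in P than in C cells at day 1, with a log2 ratio of −1.09 ± 0.19 (adjusted p = 0.031, edgeR), a call that was lost when library totals replaced TMM and when any of the 4 day 1 libraries was left out. Irf9, which gives the transcription factor complex of type I interferon much of its DNA binding, measured 11 and 13 CPM in C cells and 33.4 and 37.5 CPM in P cells at day −2. At day 1 it reached 61.0 and 60.7 CPM in C cells and 40.9 and 43.7 CPM in P cells. It rose 5.07-fold in C cells and was 2.96-fold higher in P cells at day −2 (adjusted p = 0.000212 and 0.00349, edgeR's quasi-likelihood test). The responses of the 2 lines to induction differed for Stat2 (−2.77) and Irf9 (−2.09), with adjusted p-values of 0.00939 and 0.011 from edgeR. On the whole list 3 genes were called in this way, a count that became 1 without replica 1 of C cells at day −2 and 9 without replica 2 of P cells at day −2.

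Of the other genes on this list, Nlrc5, a regulator of MHC class I genes, rose with induction in C cells (2.24 ± 0.36, adjusted p = 0.00518, edgeR) and was higher in P cells at day −2 (1.66 ± 0.35, adjusted p = 0.0453), the latter lost without either C library at day −2 or either P library at day 1. Jak2 (1.26 ± 0.25) and Irf2 (1.00 ± 0.14) rose in C cells (adjusted p = 0.013 and 0.00304, both lost without replica 2 of C cells at day −2) and at day −2 had ratios of P to C cells of 0.08 ± 0.25 and 0.45 ± 0.14. Irf1, a transcription factor that interferon gamma induces, measured 42.8 and 36.1 CPM in C cells and 46.9 and 39.8 CPM in P cells at day −2. At day 1 the levels were 42.3 and 45.4 CPM in C cells and 30.6 and 30.8 CPM in P cells. It was called in none of the 4 comparisons, with log2 ratios of 0.15 ± 0.16 for the induction of C cells and 0.14 ± 0.16 for P against C cells at day −2.

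The receptor genes and the kinase genes Jak1 and Tyk2 were not called. Before induction the log2 ratio between P and C cells was 0.25 for Ifngr1, −0.47 for Ifngr2, 0.26 for Ifnar1, 0.26 for Ifnar2, 0.03 for Jak1 and −0.01 for Tyk2. On induction in C cells the same genes had log2 ratios of 0.38, −0.31, 0.45, 0.76, 0.10 and −0.26, of which that of Ifnar2 passed the threshold on p (adjusted p = 0.0234, edgeR) but not that on the ratio. The 6 genes of interferon ligands on the list (Ifng, Ifnb1, Ifna4, Ifnl2, Ifnl3 and Ifnk) had at most 6 counts in a library and were not tested. RNA of these 6 genes was thus not detectable above a few counts at this depth in either line, and other ligand genes were not on the list.

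Of 7 negative regulators, Usp18, which damps signalling at the type I interferon receptor, moved most. It measured 1.43 and 2.04 CPM in C cells and 28.6 and 22.5 CPM in P cells at day −2. The levels at day 1 were 37.1 and 35.2 CPM in C cells and 22.1 and 22.1 CPM in P cells. It rose 20.8-fold in C cells (adjusted p = 9.46e-05) and was 14.7-fold higher in P cells at day −2 (adjusted p = 0.00108, both edgeR). Socs3 rose in both lines (2.62 and 1.45), while Ptpn6 was called lower in both (−2.00 and −1.55) and in P against C cells at day −2 (−1.55, where 2.15% of all genes were called lower), the last unless either C library of that day was left out. Socs1, an inhibitor of JAK kinases, was called lower in P than in C cells at day 1 (−1.40 ± 0.30, adjusted p = 0.0549, edgeR), a call that leaving out any of 6 libraries ended.

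Among 41 other interferon-stimulated genes, 39 were tested. In C cells 32 were called higher on induction, with a median log2 ratio of 2.69, and before induction 26 were called higher in P than in C cells, with a median of 1.63. In both comparisons 0 were called lower by edgeR and by DESeq2, with 2 and 1 lower at an unadjusted p under 0.05. In P cells 9 were called higher and 3 lower on induction, where 7.65% and 10.4% of all genes were. The 9 became 5 without replica 1 of P cells at day 1 and 5 in a fit of the P libraries alone. In the induction of C cells the lowest p fell to Oas2, a sensor of double-stranded RNA (6.93), Irf7, a factor for type I interferon genes (4.42), and Psmb9, an immunoproteasome subunit (6.21). Their adjusted p-values from edgeR were 6.16e-05, 6.16e-05 and 8.03e-05. Between P and C cells before induction it fell to Irf7 (3.35), Oas2 (3.94) and Isg15, a ubiquitin-like modifier (3.17). Here the adjusted p-values from edgeR were 0.00108, 0.00108 and 0.00162. The day −2 count of 26 became 12 without replica 2 of C cells at day −2 and 3 in a fit of the day −2 libraries alone.

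At day 1 this list and the 10 GTPase genes had different counts of calls. Of the 39 genes 0 were higher in P than in C cells by edgeR, by DESeq2 or at an unadjusted p under 0.05. Lower were 9 by DESeq2 and 19 at an unadjusted p under 0.05 in edgeR. The calls of edgeR, which put 2.23% of all genes lower, held 7: Oas2 (−1.56), Cxcl10 (−1.91), Mx1 (−1.75), Oasl2 (−1.56), Oas1a (−1.58), Rsad2 (−1.44) and Zbp1 (−1.66). Those beyond the 3 with the lowest p were named after their values were seen. The 3 with the lowest p had adjusted p-values of 0.00597, 0.0166 and 0.0174 from edgeR. The list's median was −0.58, against −0.22 for the 10 GTPase genes and 0.01 for all genes. The difference between the 2 lists was not tested, and the count of 7 became 0 without replica 1 of P cells at day 1. The difference between the responses was called lower for 23 of the 39, with a median of −2.19, and this count ranged from 5, without replica 1 of P cells at day 1, to 34, without replica 1 of P cells at day −2.

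**Figure D4:**
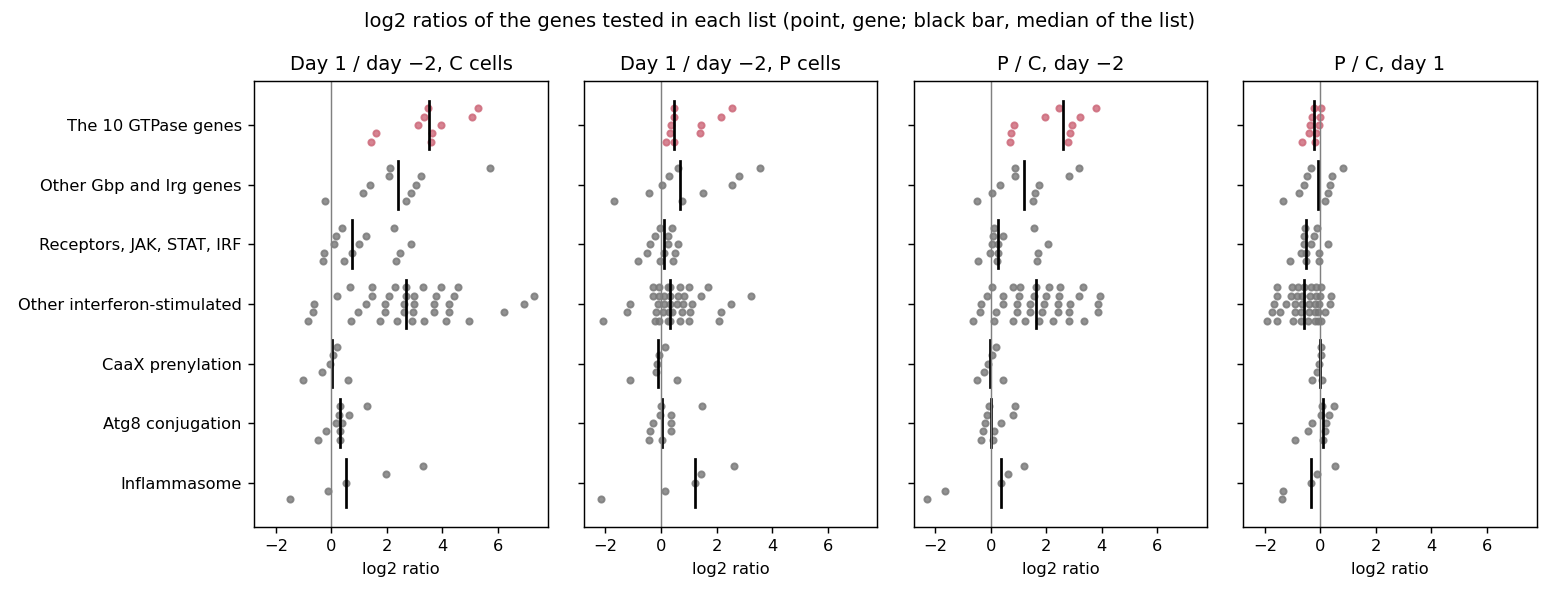
Log2 ratios of the genes tested in 7 lists (points, 1 per gene; black bars, medians) in the 4 comparisons. The 10 GTPase genes have medians of 3.53, 0.48, 2.61 and −0.22, the other interferon-stimulated genes 2.69, 0.32, 1.63 and −0.58, and the largest median of the CaaX prenylation and Atg8 conjugation lists is 0.31.

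The proteins that act on or after these GTPases were covered by 3 more lists. GBPs such as Gbp2 and Gbp5 are prenylated at a C-terminal CaaX motif, and of 6 genes for prenylation and CaaX processing Fntb, a farnesyltransferase subunit, was called lower on induction in C cells (−1.01 ± 0.24, adjusted p = 0.0247, edgeR) and in P cells (−1.11 ± 0.25, adjusted p = 0.0219). Of 10 genes of the Atg8 conjugation machinery, which places GBPs and IRGs on vacuoles, Atg12 was called higher on induction in both lines (1.30 ± 0.29 and 1.48 ± 0.29, adjusted p = 0.0186 and 0.0146). Between P and C cells 0 of these 16 genes were called on either day by edgeR or DESeq2, and at an unadjusted p under 0.05 there were 4 at day −2 and 2 at day 1, all of the Atg8 machinery. Of 8 inflammasome genes 5 were tested, and Casp1 (3.30 and 2.65) and Casp4 (1.96 and 1.22) were called higher and Gsdmd (−1.48 and −2.17) lower on induction in C and P cells. Casp1 was near the floor at day −2, with 4 and 1 counts in C cells and 2 and 10 counts in P cells. The DNA sensor Aim2 was lower in P than in C cells at day −2 (−2.29 ± 0.38, adjusted p = 0.0188, edgeR) and at day 1 (−1.36 ± 0.35, adjusted p = 0.0973), and was called higher on induction in P cells (1.45 ± 0.38). Without either C library at day −2 Aim2 lost its day −2 call, and leaving out any of 6 libraries ended its call at day 1. Fntb lost its call in C cells when any of 6 libraries was left out, and in P cells without replica 1 at day −2 or replica 2 at day 1 and with library totals in place of TMM. The calls of Casp1, Casp4, Aim2, Socs3 and Ptpn6 in the induction of P cells each ended without either P library of day 1. In C cells Atg12 lost its call without replica 1 of either day and Casp1 without replica 2 of either day.

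Leukocytes express the GTPase genes strongly, so markers of other cell types were checked. Of 13 leukocyte markers 4 passed the filter (Lyz2, Cd68, Cd14 and Csf1r). The defining markers Ptprc, Adgre1 and Tyrobp did not, with at most 8, 4 and 1 counts in a library, and Itgam reached 37 counts in replica 1 of P cells at day −2 and at most 9 elsewhere. Lyz2, a lysozyme gene of macrophages, was called higher in P than in C cells at day −2 (log2 ratio 4.01 ± 0.79, lost without either C library of that day). It measured 0.279 and 0.0886 CPM in C cells and 1.65 and 4.49 CPM in P cells at day −2, and 0.158 and 0.0398 CPM in C cells and 0.726 and 1.03 CPM in P cells at day 1. Like the GTPase genes it was thus higher in uninduced P than C cells, but its ratios on induction were −0.88 ± 1.01 in C cells and −1.82 ± 0.68 in P cells, without a call. Cd68, a lysosomal protein gene of macrophages, was called higher on induction in C cells (1.06 ± 0.37, lost when any of 6 libraries was left out) and in P cells (1.63 ± 0.38, lost without replica 2 of P cells at day 1). Before induction Cd14 and Csf1r were called lower in P than in C cells (−1.58 and −1.55, both lost without either C library of that day). Summed over the 13 markers, of which Cd14 had the most counts, expression was 23.0 to 24.2 CPM in C cells and 13.0 to 13.4 CPM in P cells at day −2, and 14.3 to 16.2 CPM in C cells and 9.23 to 11.1 CPM in P cells at day 1. The part of such cells in the levels of the GTPase genes was not tested. Over 5 endothelial markers the sum was between 0.700 and 2.66 CPM in every library. The 10 preadipocyte and fibroblast markers summed to between 12401 and 21587 CPM in 7 libraries and to 70396 CPM in replica 1 of P cells at day −2.

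The profile of the 10 genes over the 8 libraries was compared with that of 9912 genes of at least 5 CPM on no list here. The measure was Pearson's correlation of log2 values with the mean profile of the 10. As a description, each of the 10 had a correlation between 0.873 (Gbp5) and 0.986 (Irgm2) with the mean of the other 9. Of the 5 genes most like the mean profile, 4 are Lifr, the receptor for leukemia inhibitory factor (0.998), Hp, the acute phase protein haptoglobin (0.992), Nicn1 (0.989) and Tor1aip1 (0.986). Genes on the lists, the interferon-stimulated ones among them, were left out beforehand, so this ranking holds none of them. The 8 points come in 4 pairs of replicas and share the 2 lines and 2 days, so genes that were low in C cells at day −2, intermediate in P cells and high at day 1 rank high by this measure.

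Lifr measured 10.4 and 10.8 CPM in C cells and 27.4 and 40.9 CPM in P cells at day −2. At day 1 it reached 79.2 and 79.7 CPM in C cells and 68.0 and 68.6 CPM in P cells. As with the sum of the 10 GTPase genes, replica 1 of P cells at day −2 was the lower of the pair, and the P libraries at day 1 were slightly below the C libraries. In C cells Hp was near the floor before induction, with counts of 5 and 3, and it measured 3.67 and 3.21 CPM in P cells at day −2, 16.7 and 17.6 CPM in C cells at day 1, and 12.1 and 10.6 CPM in P cells at day 1.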

How the data were processed

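RNA of C and P cells at day −2 and day 1 was sequenced by the study on the Ion Torrent system, with 2 biological replicas per condition. The authors used the FASTX-Toolkit to clean the reads, TopHat2 2.0.9 to align them to mm9, and counted them per gene with R libraries, and the deposited values are these raw counts, which the authors compared with DESeq. The use of strand and the counting of reads from several places are not given in the sources used here.

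These counts went into edgeR 4.0.16, on limma 3.58.1 in R 4.3.3. There filterByExpr left 13339 of 24013 genes, libraries were scaled by TMM, and a quasi-likelihood model with a mean per condition was fitted to 8 libraries. Genes were called at a Benjamini-Hochberg adjusted p under 0.1 and a ratio over 2 or under 0.5. All p-values are two-sided and measure the spread between the replicas. Log2 CPM used a prior count of 2. Gene symbols and the order of genes came from RefSeq for GRCm38.p6, which named 23929 genes and left 84 without a symbol. Total depth and the counting floor cover counting error only, and with 2 libraries per group an exact permutation test cannot go below 0.333. The steps were tested on simulated data.

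The 10 genes and the lists were chosen with earlier results of these data known. Beyond the 10, the genes named are all other family, signalling and regulator genes tested, and the 3 with the lowest p of the other lists in 3 comparisons. The rule also named the 5 genes of no list here with the most similar profile. Some genes that this rule names are not reported here. Other genes were named after their values were seen. The alternatives were DESeq2 1.42.0, its size factors or library totals, other filters on low counts, a fit of the compared conditions alone, the replica block, other thresholds and each library left out in turn, and, added after the data were seen, 2 blocks with crossed numbers.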

Additional observations from a re-analysis of the deposited data

Results flagged for a closer look

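The interaction of the fit over all genes was called for 5 of the 10 GTPase genes, where 1.93% of all genes were called lower. This count moved with the library left out, as described above. The difference, as the log2 response of P cells less that of C cells, was −2.94 for Gbp2, −3.59 for Gbp3, −3.83 for Gbp6, −3.10 for Irgm2 and −3.15 for Igtp. In each of these genes both P libraries at day −2 were above both C libraries at day −2, as in 26.5% of all genes. Since the difference is the day 1 ratio of P to C cells less the day −2 ratio, this follows in part from how the 5 genes were picked. Groups of 2 replicas are too small for a check of single outlying samples.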

How the results depend on the processing

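In no setting did a called ratio of the 10 genes change its direction. The count called was 10 for the induction of C cells, 4 for P cells, 7 for P against C cells at day −2, 0 at day 1 and 5 for the difference of the responses. With at least 10 counts in every library, where Gbp5 and Gbp6 were not tested, 2 of 8 were called for P cells, and in fits of the compared conditions alone 2 of 10 for P cells and 3 of 9 at day −2. With single libraries left out, the counts ranged from 8 to 10, 3 to 5, 4 to 9, 0 to 0 and 1 to 9; a group left with 1 library is assumed to vary like the others. Replicas with the same number did not deviate together (correlations over all genes from −0.355 to 0.209), so the numbers were not taken to pair the libraries. With the replicate block the counts were 10, 4, 7, 0 and 5, and with P numbers at day 1 crossed or all day 1 numbers crossed the last was 5 or 6. Among the other interferon-stimulated genes the block moved the count for the difference of the responses from 23 to 15, and it ended the call of Socs1 at day 1. Library totals in place of TMM moved the median of all genes to −0.115, 0.195, −0.175, 0.114 and 0.287 in the 5 comparisons, and at day 1 turned the uncalled ratios of Gbp2 and Gbp6 to 0.08 and 0.06. DESeq2 called 7 and no filter 6 for the difference of the responses. The cause of these changes was not tested. Levels per transcript length were planned and not run, as no transcript lengths were at hand. At this depth Gbp5 had 2 to 7 counts in the day −2 libraries, and 6 other family genes and the 6 listed ligand genes had too few counts to be tested.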
